A study of Arabidopsis thaliana with 4 samples.

Results

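Transcript levels of 3 stress and defence genes were followed in whole seedlings of Arabidopsis thaliana from lines that carry insertions named for CESTA (CES), which encodes a bHLH transcription factor that acts in brassinosteroid signalling. The genes are PDF1.2 (AT5G44420), WRKY53 (AT4G23810) and STZ (AT1G27730), picked by name in the platform annotation of the Affymetrix ATH1 array. That annotation gives 13350 genes a probe set of their own. Each of the 3 genes has 1 such probe set and shares none with another gene. The annotation does not list 8730 of 22746 probe sets, so genes counted below as lacking a probe set may still be on the array.

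The seedlings had the Columbia-0 background, were kept for 2 days at 4 °C, and then stood upright on sucrose agar with days of 16 h light, nights of 8 h and 24 °C until they were 14 days old. A line with a T-DNA insertion, named as a knockout of CES, gave 2 arrays. A line named as a CES enhancer trap, whose label also carries the words gene knockout, gave 1 array, and the wild type gave 1. Each mutant is a single line, and neither the position of either insertion nor the number of seedlings behind an RNA sample is stated in the labels. Whether the knockout arrays came from separate cultures is not stated, and the p-values below reflect the spread of these 2 arrays, possibly a technical one.

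PDF1.2 encodes a small secreted plant defensin, an antifungal peptide, and its transcript is a standard marker of jasmonate and ethylene acting together. In that pathway the ERF-type factors ORA59 and ERF1 are known to activate PDF1.2, and salicylic acid signalling is known to oppose it. WRKY53 encodes a WRKY-domain transcription factor of leaf senescence and basal defence. STZ, also called ZAT10, encodes a zinc-finger repressor, and both regulators are known to respond within minutes to cold, wounding, touch and oxidative stress.

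As a check of the labels, CES gave a signal of 4124 in the array labelled enhancer trap, 0.533 in wild type, and 7.29 and 5.35 in knockout replicates 1 and 2. The brightest Bacillus control probe set, for which the plant has no transcript, reached 10.6. CES therefore lay within background in wild type and knockout, and a loss in the knockout could not be seen. Its difference of 2.24 between knockout and wild type, on the scale of log2(signal + 1), is among the calls of the limma test used below. That difference lies wholly within background and is not read as a change. CES was bright enough to be tested only through its enhancer-trap signal. Median signals of the arrays lay between 38.5 and 39.6. Transcripts of shoot and root were both present, with LHCB4.1, a light-harvesting gene, between 4947 and 5821 and PYK10, a root beta-glucosidase gene, between 3308 and 4112. With so few arrays the precision of each value is low, and detection calls were not used here.

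PDF1.2 was low in the enhancer-trap array and in no other. Its signal was 69.1 in wild type, 19.5 in the enhancer trap, 69.7 in knockout replicate 1 and 51.9 in knockout replicate 2. The wild-type value lay between those of the knockout arrays, as in 34.4% of tested probe sets, and the enhancer-trap value lay below all of them, at 1.84 times the highest Bacillus control. The lowest of the other 3 arrays was 2.66 times as high as the enhancer trap. Of the tested probe sets, 29.8% were lowest in the enhancer trap, and 83 of 13648 (0.608%) lay below the other arrays by at least as much as PDF1.2. In whole seedlings, fewer cells of a type and less RNA per cell cannot be told apart.

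**Figure D1:**
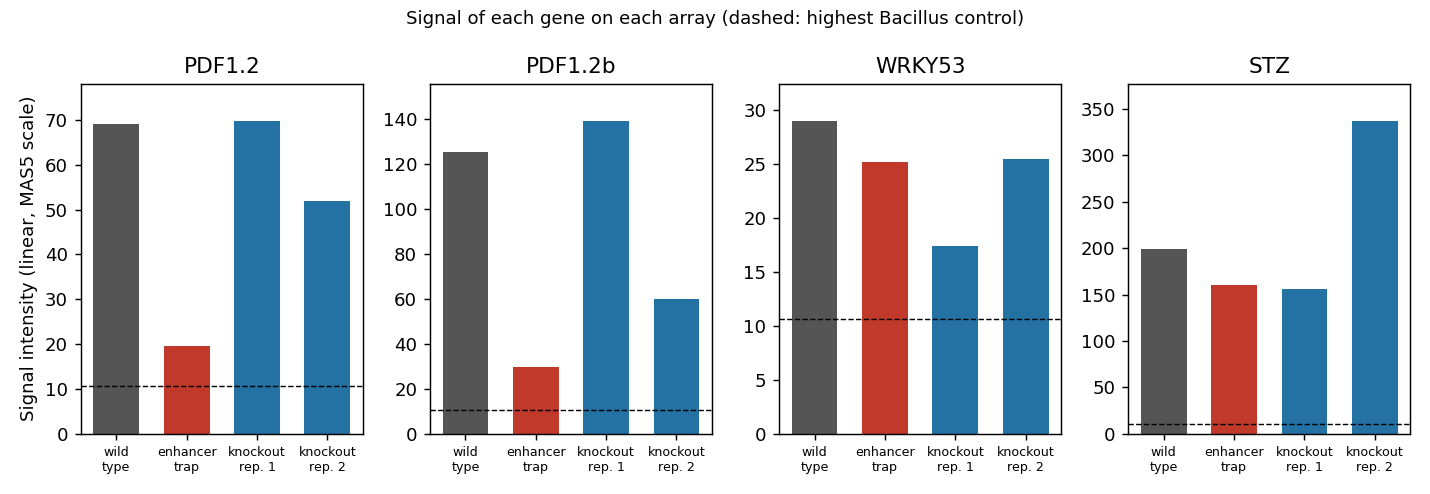
Signal intensity (linear vertical axes that start at 0, each with its own scale) of PDF1.2, its close copy PDF1.2b, WRKY53 and STZ on the 4 arrays, 1 bar per array, with a dashed line at the highest Bacillus control (10.6). PDF1.2 and PDF1.2b are lowest in the enhancer trap (19.5 and 29.7), while the highest STZ bar is knockout replicate 2 (337) and the lowest WRKY53 bar is knockout replicate 1 (17.3).

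Against wild type, PDF1.2 fell by 1.77 in the enhancer trap on the scale of log2(signal + 1), with a standard error of 0.323 and a 95% interval from -2.42 to -1.12 (limma adjusted p = 0.000188). On the linear scale the wild-type signal was 3.54 times that of the enhancer trap. In this comparison 4.29% of 13648 tested probe sets passed the test at an adjusted p of 0.05, 2.26% as lower and 2.04% as higher. Ordered by p, PDF1.2 stood at rank 150. The test sets 1 array against 1, and its spread comes from the knockout arrays alone. Those arrays had an SD of 0.296 for PDF1.2 on the log2 scale, which the spread shared across probe sets by limma set at 0.228. The standard errors of PDF1.2 are therefore narrower than its own replicates would give. Without the filter on dim probe sets, PDF1.2 did not pass (limma adjusted p = 0.0958 at the same difference).

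No difference of PDF1.2 between knockout and wild type passed the test. It was -0.20 with a standard error of 0.280 and a 95% interval from -0.76 to 0.37 (limma adjusted p = 1.00), which leaves room for changes between 0.590 and 1.29 times the wild-type level. Replicate 1 stood at 1.01 times the wild-type signal and replicate 2 at 0.751 times. Of all tested probe sets, 0.183% passed in this comparison, and 0.0586% passed as lower.

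Set directly against the enhancer trap, PDF1.2 was higher in the knockout by 1.57, with a standard error of 0.280 and a 95% interval from 1.01 to 2.14 (limma adjusted p = 9.46e-05). The background of this comparison was 5.99% of tested probe sets, with 3.25% higher in the knockout. The signal was 3.57 times the enhancer-trap value in replicate 1 and 2.66 times in replicate 2. This comparison does not use the wild-type array, but it shares the enhancer-trap array with the first, so the lone low value of 19.5 lies behind both. Without the filter it did not pass either (limma adjusted p = 0.0700).

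PDF1.2b, a second defensin gene whose name marks it as a close copy of PDF1.2, has a probe set with the suffix that the maker gives to sets with probes able to bind related transcripts. Its signal was 125.5 in wild type, 29.7 in the enhancer trap, 139.2 in knockout replicate 1 and 59.8 in knockout replicate 2. Again the enhancer trap was lowest and wild type lay between the knockout arrays. PDF1.2b fell by 2.04 in the enhancer trap against wild type (SE 0.326, limma adjusted p = 2.08e-05) and was higher by 1.59 in the knockout than in the enhancer trap (SE 0.282, limma adjusted p = 9.42e-05). Its knockout arrays lay 2.33-fold apart, a gap that 0.271% of tested probe sets reached, and the calls were lost without the filter (limma adjusted p = 0.198 and 0.204) and without the intensity trend (limma adjusted p = 0.0839 and 0.0985). With a gap of that width, the standard errors of PDF1.2b are narrower than its own replicates would give. Because the probes of PDF1.2b can bind copies of PDF1.2, the readings of the 2 genes may not be separate measurements. PDF1.2c, the gene next to PDF1.2 in gene order, has no probe set listed in the annotation used.

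Other defensins above the filter did not pass the test. Of 10 defensin genes with a probe set of their own, 5 were tested, and PDF1.2 and PDF1.2b were the only ones of these to pass in any comparison, beside 4.29% of all tested probe sets in the enhancer trap against wild type and 5.99% in the knockout against the enhancer trap. The median difference of the 5 in the enhancer trap against wild type was 0.01, beside -0.01 over all tested probe sets. PDF2.5 read 43.1, 43.3, 46.8 and 46.0 in wild type, enhancer trap and knockout replicates 1 and 2. LCR68, the defensin PDF2.3, was at 0.40 in the enhancer trap against wild type (limma adjusted p = 0.291), and LCR69, the defensin PDF2.2, was at 0.24 (limma adjusted p = 0.671).

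Little of the pathway around PDF1.2 could be read. Of 35 listed jasmonate and ethylene genes, 5 had a probe set of their own by the annotation used and 3 were tested, with PDF1.2 and PDF1.2b lower in the enhancer trap than in wild type and 0 higher, beside 2.26% of all tested probe sets called lower. Neither passed without the filter on dim probe sets (limma adjusted p = 0.0958 and 0.198). EIN3, the transcription factor at the end of the ethylene pathway, read 469.8 in wild type, 501.4 in the enhancer trap, and 461.1 and 481.1 in the knockout arrays. Its difference in the enhancer trap was 0.09 (limma adjusted p = 0.923). THI2.1, a thionin gene of jasmonate defence, lay below the filter, at 8.85 in wild type, 4.64 in the enhancer trap, and 10.0 and 17.0 in the knockout arrays. The activators ORA59 and ERF1, the jasmonate synthesis genes and the JAZ repressors had no probe set listed, and neither had any of the 16 salicylic acid genes.

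Some other readings of the enhancer-trap array also lay outside the range of the other arrays, which is common for a lone array. On it 29.8% of tested probe sets read lower than on every other array, and the share that read highest was not counted. EXPA7, an expansin gene of root hairs, read 112.8 there against 44.7 in wild type and 59.3 and 83.1 in the knockout arrays, a difference of 1.31 from wild type (SE 0.284, limma adjusted p = 0.00191). It did not pass without the filter (limma adjusted p = 0.159), without the intensity trend (0.0665) or with knockout and wild type as 1 group (0.151, at a difference of 0.89). The root markers measured, EXPA7 and PYK10, 2 of 5 listed, summed to 4225 in the enhancer trap, 3570 in wild type and 3368 to 3681 in the knockout, and the 2 shoot markers summed to 9871, 11646 and 11166 to 11199. The sums carry no test, and PYK10 and the shoot markers LHCB4.1 and LHCB4.2 passed in no comparison. The ratio of 3' to 5' GAPDH signal, which reflects RNA integrity, stood at 1.38 in the enhancer trap, 1.70 in wild type and 1.86 and 2.01 in the knockout arrays. The part of these differences in the PDF1.2 reading was not tested.

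WRKY53 was dim on every array and showed no difference that passed. Its signal was 28.9 in wild type, 25.2 in the enhancer trap, 17.3 in knockout replicate 1 and 25.4 in knockout replicate 2. Wild type was highest, knockout replicate 1 was lowest, and the enhancer trap lay just under knockout replicate 2, so it fell within the range of the knockout arrays while wild type lay above that range. The lowest reading stood at 1.63 times the highest Bacillus control.

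The WRKY53 differences were -0.19 in the enhancer trap against wild type (SE 0.418, limma adjusted p = 0.932) and -0.44 in the knockout against wild type (SE 0.362, limma adjusted p = 1.00). Between knockout and enhancer trap the difference was -0.25 (SE 0.362, limma adjusted p = 0.834). The 95% interval of the first ran from -1.04 to 0.65, that is from 0.487 to 1.57 times wild type, so a change of up to about that size in either direction was not detectable with these arrays. The knockout arrays differed 1.47-fold between themselves, a gap that 7.24% of tested probe sets reached. Their SD for WRKY53 was 0.372 on the log2 scale, while the spread shared across probe sets by limma set it at 0.296.

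**Figure D2:**
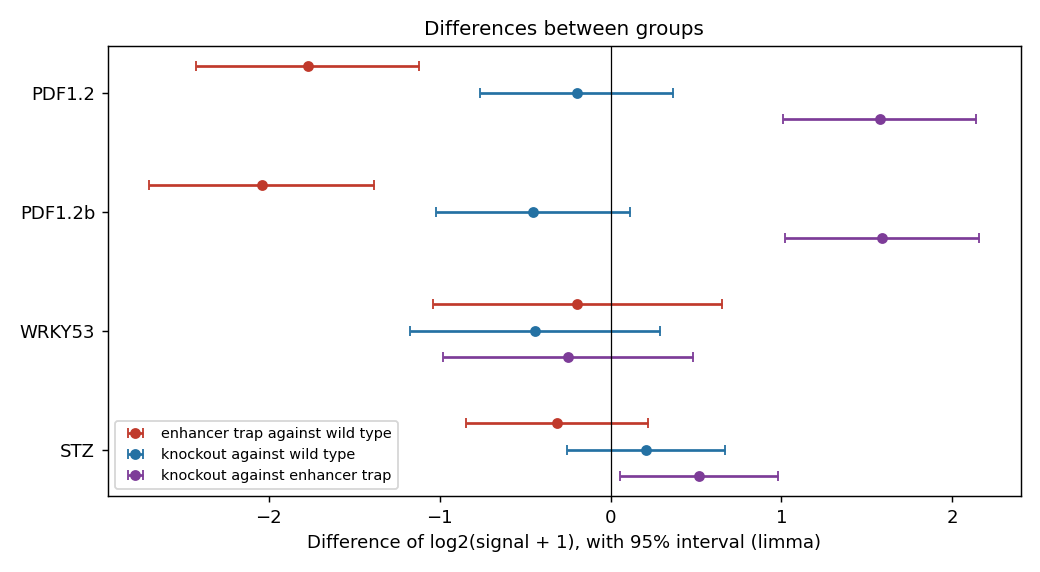
Differences of log2(signal + 1) between groups for PDF1.2, PDF1.2b, WRKY53 and STZ, with points at the limma estimate and bars for the 95% interval, 1 colour per comparison. The intervals of PDF1.2 lie away from 0 where the enhancer trap is compared (-1.77 against wild type, and 1.57 for the knockout over it), those of WRKY53 all span 0, and that of STZ for knockout against enhancer trap lies just above 0 before adjustment for multiple tests.

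STZ stood well above background, and its largest difference was between the replicates of 1 line. Its signal was 198.8 in wild type, 159.8 in the enhancer trap, 156.0 in knockout replicate 1 and 337.0 in knockout replicate 2. Both the wild type and the enhancer trap lay between the knockout arrays, which 13.7% of tested probe sets did. The knockout arrays lay 2.16-fold apart, with replicate 2 higher, and 55 of 13648 tested probe sets (0.403%) had a gap at least as wide on the log2 scale.

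None of the STZ differences passed the test as fitted. The enhancer trap was at -0.31 against wild type (SE 0.265, limma adjusted p = 0.743), with a 95% interval from -0.85 to 0.22. The knockout was at 0.21 against wild type (SE 0.229, limma adjusted p = 1.00) and at 0.52 against the enhancer trap (SE 0.229, limma adjusted p = 0.232, or 0.0483 with arrays centred on the median of the tested probe sets, where limma's prior degrees of freedom were infinite). The last of these rested on replicate 2: the difference was 1.07 without replicate 1 and -0.03 without replicate 2. Against wild type the values were 0.76 without replicate 1 and -0.35 without replicate 2, so the sign depends on which knockout array is read. The knockout arrays had an SD of 0.782 for STZ on the log2 scale, while the spread shared across probe sets by limma set it at 0.187, so these standard errors and intervals are narrower than the gene's own replicates would give.

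The other rapid stress genes measured leaned the same way between the knockout arrays. Of 39 genes listed as rapid stress responses, 6 had a probe set of their own by the annotation used, and all 6 were tested. These 6 include STZ itself and WRKY53, so the counts and medians below are not separate from the STZ gap given above. All 6 read higher in knockout replicate 2 than in replicate 1, as did 49.2% of all tested probe sets. Their median difference was 0.49, beside -0.01 over all tested probe sets. CML38, a calmodulin-like gene, read 65.0 in replicate 1 and 97.5 in replicate 2, against 47.2 in the enhancer trap and 49.0 in wild type. WRKY22, a WRKY gene of early immune signalling, read 154.5 and 199.3 in the knockout arrays, 120.8 in the enhancer trap and 146.9 in wild type.

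The other members of the list had gaps below that of STZ. WRKY6, a WRKY gene of senescence and phosphate status, read 52.1 in replicate 1, 69.2 in replicate 2, 59.8 in the enhancer trap and 78.6 in wild type. AT2G28200 read 106.2 and 145.6 in the knockout arrays, 107.5 in the enhancer trap and 79.5 in wild type. PDF1.2 and PDF1.2b went the other way, at -0.42 and -1.20 for replicate 2 minus replicate 1. The labels give no feature that sets the knockout replicates apart, and the cause of the gap was not tested.

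**Figure D3:**
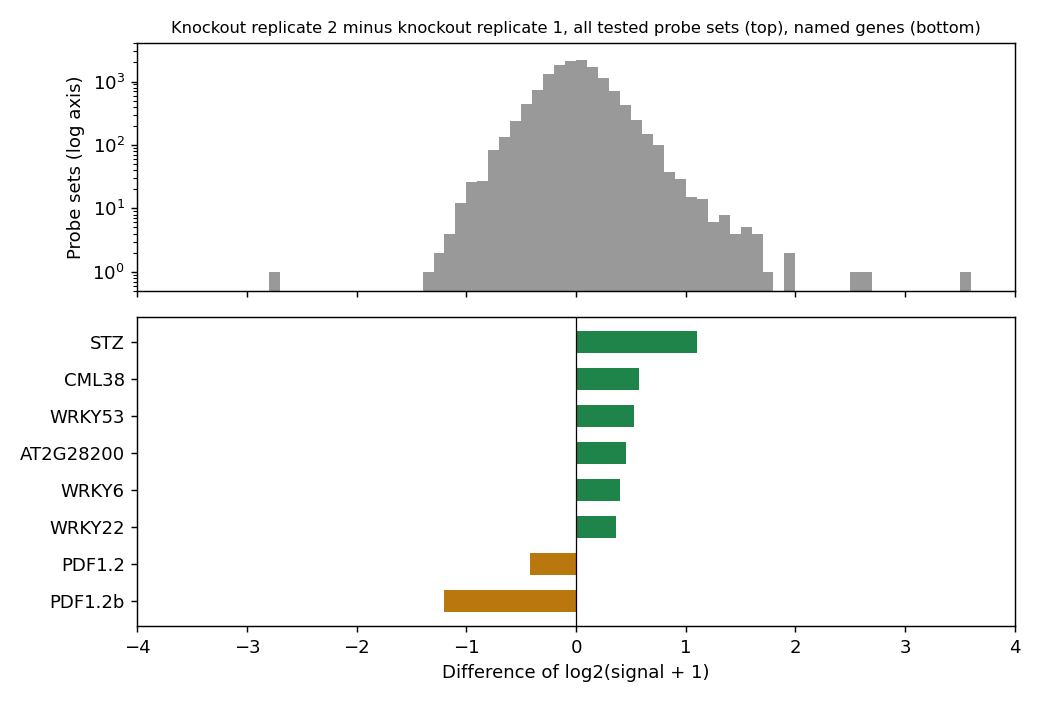
Difference of log2(signal + 1) between knockout replicate 2 and knockout replicate 1, as a histogram of all 13648 tested probe sets (top, vertical log axis) and as bars for the 6 rapid stress genes (green) and both PDF1.2 genes (brown). All 6 green bars lie to the right of 0, with STZ farthest at 1.11, and both brown bars lie to the left.

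Between groups, 0 of the 6 rapid stress genes passed the limma test in any of the 3 comparisons. At an unadjusted p under 0.05 there were 0 in the enhancer trap against wild type, 2 (CML38 and AT2G28200) in the knockout against wild type and 3 in the knockout against the enhancer trap, where CML38, WRKY22 and STZ had p-values of 0.00658, 0.00859 and 0.0290. Of all 13648 tested probe sets, 12.9%, 5.67% and 15.7% lay under that p in these comparisons, in the same order. The median difference of the 6 was -0.24 in the enhancer trap against wild type, 0.23 in the knockout against wild type and 0.36 in the knockout against the enhancer trap, beside -0.01 over all tested probe sets in each. The highest array for CML38, WRKY22, STZ and AT2G28200 was knockout replicate 2, and for WRKY53 and WRKY6 it was wild type.

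WRKY genes beyond this list could be read as well. Of 71 WRKY genes in the reference gene table, the annotation used gave 7 a probe set of their own, and 6 of these were tested. They include WRKY53, WRKY6 and WRKY22, which the rapid stress list holds too. By limma 0 of the 6 passed in any comparison, with 2 (WRKY22 and WRKY47) at an unadjusted p under 0.05 in the knockout against the enhancer trap, where 15.7% of all tested probe sets lay under it, and 0 in the others. Their median difference was -0.24 in the enhancer trap against wild type and -0.17 in the knockout. All 6 read higher in knockout replicate 2 than in replicate 1, as did 49.2% of all tested probe sets. Their median gap was 0.38, beside -0.01 over all tested probe sets. WRKY53, WRKY6 and WRKY22 were already counted among the rapid stress genes, so the lists do not give separate counts. WRKY20 read 100.3 in wild type, 77.3 in the enhancer trap, and 99.6 and 106.2 in the knockout arrays. ZAP1, a WRKY gene also known as WRKY1, read 117.5, 107.3, 108.1 and 138.0 in the same order. WRKY42 lay within background on every array, with no signal above 6.35, and was not tested.

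Of 14 senescence genes listed around WRKY53, the 1 with a probe set of its own was SAG101, a lipase-like gene that acts with EDS1 in immunity. It read 16.7 in wild type, 24.6 in the enhancer trap, and 30.3 and 26.1 in the knockout arrays. Its differences from wild type were 0.53 in the enhancer trap (limma adjusted p = 0.703) and 0.71 in the knockout (limma adjusted p = 0.882). Wild type was lowest, but all 4 readings were dim.

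Genes with the most similar pattern were found by the root mean square difference between profiles of log2(signal + 1) over the 4 arrays, each centred on its own mean, among 7275 other tested probe sets with 1 annotated gene. For PDF1.2 the nearest were AT5G55450 at 0.06, AT4G13630 at 0.07, NET4B at 0.08, AT1G13650 at 0.14 and AT5G52790 at 0.15, where the median over all compared was 0.74. AT5G55450 read 59.9 in wild type, 16.1 in the enhancer trap, and 54.8 and 45.6 in the knockout arrays. NET4B, of the Networked family of actin-binding proteins, read 119.8, 38.3, 132.4 and 105.0 in the same order. PDF1.2b, at 0.30, had 49 probe sets nearer to PDF1.2 than itself.

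For WRKY53 the nearest was AT5G42250 at 0.01, followed by AT3G01130 at 0.04 and AT1G63430, AT1G45160 and AT2G21830 at 0.04 to 0.05, beside a median of 0.30 over all compared. AT5G42250 read 276.0 in wild type, 243.6 in the enhancer trap, and 171.5 and 243.0 in the knockout arrays. Each of these 5 genes was lowest in knockout replicate 1. For STZ the nearest were AT3G61700 at 0.09, AT5G50915 at 0.12, AT3G12130 at 0.14 and AT5G46560 and AT5G05890 at 0.16, beside a median of 0.47. AT3G61700 read 34.9 in wild type, 32.3 in the enhancer trap, and 26.7 and 60.8 in the knockout arrays, and all 5 genes near STZ were highest in knockout replicate 2. These genes were chosen for their likeness, so a shared lowest or highest array follows from that choice. With 4 arrays such likeness is a description and carries no test.

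**Figure D4:**
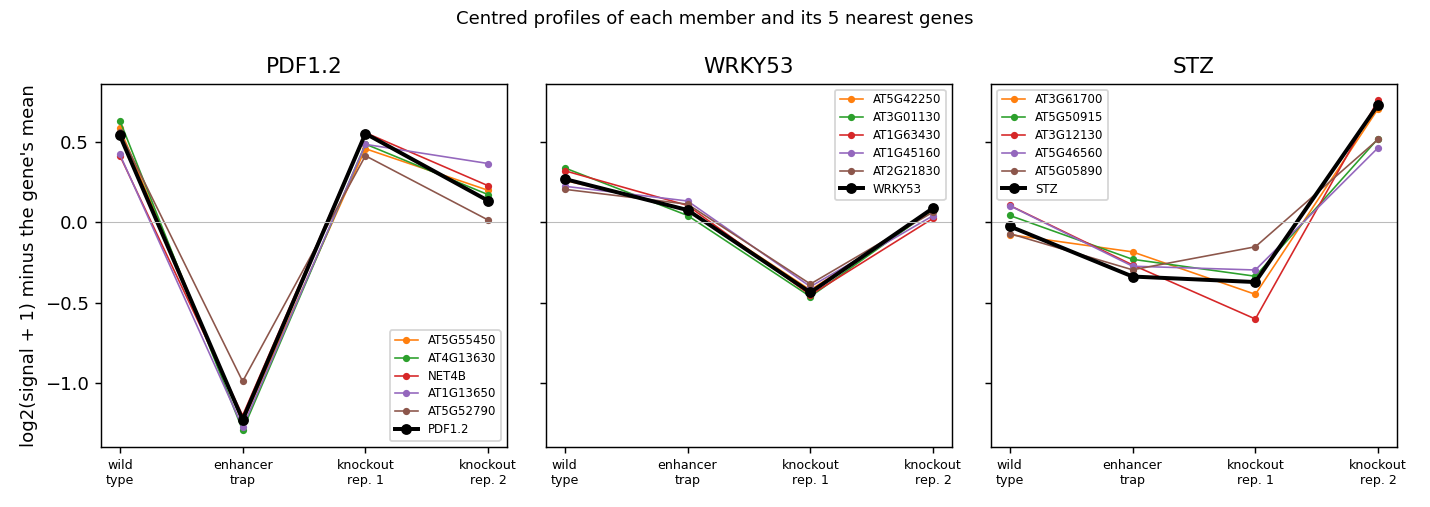
Profiles of log2(signal + 1) minus each gene's mean over the 4 arrays for PDF1.2, WRKY53 and STZ (thick black lines) and the 5 genes nearest to each (thin lines). The PDF1.2 profiles dip in the enhancer trap, the WRKY53 profiles dip in knockout replicate 1, and the STZ profiles peak in knockout replicate 2.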

How the data were processed

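RNA from whole seedlings was labelled with biotin and hybridised to single-colour ATH1 arrays, per the labels. The deposited values are linear signal intensities for single probe sets, and MAS5 and GCOS are named by the submitters' processing notes, with versions and genome build not given in the sources used here. With 2% trimmed from both ends, all arrays had a mean of 100.0, so the authors had scaled them before deposit.

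The 64 control probe sets were left out and log2(signal + 1) was taken, which understates changes of dim genes. Of 22746 probe sets, the 13648 with a mean at or above the 40th percentile were tested. Group means of the 3 groups were fitted over all 4 arrays with limma 3.58.1 in R 4.3.3 (lmFit, eBayes with an intensity trend), with two-sided p-values adjusted by Benjamini-Hochberg over all tested probe sets. The knockout arrays give the 1 residual degree of freedom, beside 41.8 prior ones, and the fit takes wild type and enhancer trap to have the same spread as the knockout. The fit was tested on simulated data, but the outcome is not given here and no result above rests on it.

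Gene names come from the platform annotation. It gives 13513 probe sets 1 gene, gives 503 several and does not list 8730. Family membership and gene order come from the gene table of assembly TAIR10.1. Members and gene lists were chosen with earlier results of these data known. Named are the 3 members, list genes that pass (at most 6 a list), otherwise the brightest 3, and the 5 nearest profiles. EIN3, THI2.1, CML38, WRKY6, WRKY42, WRKY47, the defensins outside the PDF1.2 pair and the neighbours in gene order were named after their values were seen. Alternatives covered the pseudocount, filter, normalization, trend, grouping and each knockout array. The planned comparison of several probe sets per gene could not be made, since each member has 1. The plots used matplotlib 3.10.9 and Python 3.11.15.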

Additional observations from a re-analysis of the deposited data

Results flagged for a closer look

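The difference of PDF1.2 from wild type was not alike in the mutant lines. It was -1.77 in the enhancer trap and -0.20 in the knockout on the log2 scale, and the test of the difference between these, in which the shared wild-type array cancels, gave 1.57 (limma adjusted p = 9.46e-05, higher in 2 of 2 knockout arrays than in the enhancer trap). For PDF1.2b the values were -2.04 and -0.45, and the difference between them was 1.59 (limma adjusted p = 9.42e-05, higher in 2 of 2 knockout arrays). These are the comparisons of knockout with enhancer trap already given above and not further tests. Both rest on 1 enhancer-trap array, and the calls of both were lost when dim probe sets were included. The probes of PDF1.2b can bind related transcripts, so the 2 genes may not be separate cases.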

How the results depend on the processing

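PDF1.2 passed against wild type in the enhancer trap, and in the knockout against the enhancer trap, under every setting run that could test it except without the filter on dim probe sets, where the differences of -1.77 and 1.57 had limma adjusted p = 0.0958 and 0.0700. Its adjusted p over all settings ran from 6.32e-06 to 0.0958 and from 1.41e-06 to 0.0700. At the 60th percentile filter neither PDF1.2 nor WRKY53 was tested. STZ in the knockout against the enhancer trap came to 0.53 and passed (limma adjusted p = 0.0483, range 0.0483 to 0.718) with arrays centred on the median of the tested probe sets, a setting chosen after the data were seen. WRKY53 in the enhancer trap came to 0.10, a change of sign that did not pass (limma adjusted p = 0.934), when knockout and wild type were merged into a group of 3 arrays. Of 60 tested alternative values of the 3 genes, 56 kept their direction and side of the threshold. Most of the 60 belong to differences far from the threshold as fitted, and the filter and trend settings cannot change a difference. The count therefore says little about the PDF1.2 calls, which had 7 and 6 alternative settings and were both lost without the filter. Leaving out a knockout array leaves no residual degree of freedom, so those values have no test. In the knockout against wild type they ran from -0.41 to 0.01 for PDF1.2, -0.71 to -0.18 for WRKY53 and -0.35 to 0.76 for STZ, and in the knockout against the enhancer trap from 1.36 to 1.78, -0.51 to 0.01 and -0.03 to 1.07. The sign turned with the array left out for PDF1.2 and STZ in the former and for WRKY53 and STZ in the latter. No paired analysis was made, because the labels name no pairs. The groups share only replicate number 1, and nothing in the labels says that arrays of equal number belong together.

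Counts of calls over all probe sets moved with the settings as well. In the enhancer trap against wild type 586 passed, 47.4% of them higher, and the count was 153 without the filter (27.5% higher), 316 with median centring over all probe sets (44.3%) and 205 without the intensity trend (30.2%). In the knockout against wild type 25 passed, 68.0% of them higher. The count was 0 without the filter by limma (1211 of 22746 at an unadjusted p under 0.05), 41 with quantile normalization, 2 with median centring over all probe sets (50.0% higher), 59 with centring over the tested ones and 2 without the trend. In the knockout against the enhancer trap 817 passed, 54.2% of them higher, and 231, 511 and 335 did without the filter, with median centring and without the trend, with 70.6%, 60.7% and 64.2% higher. The prior degrees of freedom, estimated from 1 residual degree of freedom, moved with these settings, from 41.8 to 6.58 without the filter, 10.7 with median centring, 7.63 without the trend and 87.9 with quantile normalization, and were infinite with centring over the tested probe sets, the setting with 59 knockout calls and the STZ call.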

Other observations

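Of the genes beside the 3 members in gene order, 3 had a probe set of their own, and 0 of these passed the limma test in any comparison, with 1 (3xHMG-box2, in the enhancer trap against wild type) at an unadjusted p under 0.05, beside 12.9% of all tested probe sets. AT5G44410, next to PDF1.2, read 25.5 in wild type, 30.3 in the enhancer trap, and 30.4 and 29.5 in the knockout arrays, a difference of 0.24 in the enhancer trap (limma adjusted p = 0.901). Next to WRKY53, 3xHMG-box2, a gene for a chromatin protein with HMG boxes, read 127.7, 84.6, 103.6 and 94.5 in the same order, at -0.59 in the enhancer trap (limma adjusted p = 0.230), and AT4G23820 read 380.2, 379.8, 403.7 and 423.4. The neighbours of STZ, TAF4B and RSL4, had no probe set listed.

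Of the 5 defensin genes under the filter, LCR67 (PDF1.1), LCR66 (PDF2.4) and LCR72 (PDF2.6) lay within background on all 4 arrays, with no signal above 10.4. PDF1.4 read 15.0 in wild type, 4.94 in the enhancer trap, and 9.04 and 3.29 in the knockout arrays, so only its wild-type reading was above the highest Bacillus control. PDF2.1 read 12.4 in wild type, 17.8 in the enhancer trap, and 17.4 and 19.7 in the knockout arrays.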
